A study of Mus musculus with 56 samples.

Results

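The comparison described here set livers of day-fed mice at the end of the daily fast against livers of day-fed mice at the end of the daily meal. It used 8 of the 56 liver libraries of the study, namely 4 mice killed at zeitgeber time 0 (ZT0, when the lights came on) and 4 killed at ZT12 (when they went off), chosen by their labels alone and not by any measured value. All 56 mice were female C57BL/6J, 9 weeks of age, kept on a cycle with 12 h of light, and fed for 7 days in the daytime (daytime-restricted feeding, DRF) or, as the reference, in the night (nighttime-restricted feeding, NRF). No allele or drug distinguished the groups, and livers were taken at ZT0, 4, 8, 12, 16, 20 and 24, with 4 mice in each of 14 groups. Each library came from 1 liver, so the errors below are spreads between mice. Under DRF the clock time and the feeding state changed together between ZT0 and ZT12, and the 8 libraries cannot tell them apart. For reference, the 4 DRF libraries of ZT24, which is the same clock time as ZT0, and the 8 NRF libraries of ZT0 and ZT12, whose mice ate in the opposite part of the day, were set beside them.

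The liver clock is a loop of transcription. A complex of ARNTL (BMAL1) with CLOCK or NPAS2 binds E-box sequences and raises the period, cryptochrome, REV-ERB and DBP genes, whose proteins then oppose it, and REV-ERB proteins repress genes that carry a ROR response element. Meal times shift this loop in the liver even where the light cycle stays fixed. Feeding also acts through insulin, which favours the SREBP and ChREBP programmes of fatty acid and sterol synthesis and glycogen storage, whereas fasting, with glucagon, glucocorticoid and PPAR alpha, favours gluconeogenesis and fatty acid oxidation.

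RNA depleted of ribosomal RNA was sequenced in pairs with strand kept. The deposited values were converted to scaled counts, meaning the count recovered for a gene in a library multiplied by a factor of that library that brings all libraries to a common scale (totals of 914748 to 983819 in the 8 libraries). Scaled counts are not divided by gene length and serve to compare mice for one gene at a time. The recovered counts came to 357.9 to 586.0 M per library, and libraries of the same group correlated across genes with r of 0.983 to 0.989. Differences are log2(scaled count + 1) at ZT12 minus ZT0 (4 mice against 4), a scale that understates change in genes below a few scaled counts. Their SE came from the limma fit of all 56 libraries in 14 groups. It rests on the spread within all groups and not on these 8 mice alone. Runs of 4 values are the scaled counts of the 4 mice, ZT0 before ZT12 unless said otherwise, and the signed numbers, with "rose by" and "fell by", are log2 differences. A gene is called where limma gave a Benjamini-Hochberg adjusted p under 0.05 over the 25391 genes tested, and every adjusted p below is from that test.

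Of these 25391 genes, 4534 (17.9%) were called, 2136 (8.41%) higher at ZT12 and 2398 (9.44%) lower. Most differences were small: 2933 of the called genes moved by less than 0.5 and 1315 by 0.5 to 1, and 137 genes (0.54%) rose and 149 (0.587%) fell by 1 or more, that is by a factor of 2 or more on this scale. The median difference of all genes was -0.0015 and the median size among called genes was 0.41. Ranges of the 4 and 4 libraries did not overlap in 10.6% of genes in the direction of ZT12 and in 12.7% in the direction of ZT0. The balance of rises and falls depended on the scale, since 47.1% of the calls were higher at ZT12 on scaled counts, 51.8% after median-of-ratios scaling and 66.6% on the values as deposited. The deposited values are already a log score, and they were tested as log2(value + 1), a log of a log. That setting, wherever it is given below, is therefore not an equal alternative to scaled counts. Among the 137 genes that rose by 1 or more, ZT12 had the highest mean of the 7 DRF times in 75, and ZT0 or ZT24 the lowest in 121. Among the 149 that fell, ZT12 had the lowest mean in 88 and ZT0 or ZT24 the highest in 122.

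Several measures of the tissue stood beside these counts. Albumin lay at 80691 to 93130 scaled counts in the 8 libraries, and of 6 hepatocyte markers Hnf4a alone was called (0.36 ± 0.087 SE, adjusted p = 0.00208). None of 8 Kupffer cell, 8 stellate cell, 8 lymphocyte or 6 erythrocyte markers was called by limma, with 0, 4, 0 and 0 of them at an unadjusted p under 0.05. Their summed levels overlapped between ZT0 and ZT12 in each case, at 683 to 798 against 667 to 932 scaled counts for Kupffer cells, 718 to 884 against 803 to 889 for stellate cells, 16.9 to 21.8 against 18.8 to 22.3 for lymphocytes and 715 to 2042 against 913 to 1576 for erythrocytes. Of 8 sinusoidal endothelial markers the sum was 667 to 752 against 707 to 745 and Lyve1 alone fell. Of 7 cholangiocyte markers the sum was 26.7 to 41.8 against 28.7 to 37.0 and Sox9 alone rose. No marker was at 0 in all 8 libraries. An index of gene length was the rank correlation across genes of exon length with a library's deviation from the mean of all libraries. It was -0.13 ± 0.068 at ZT0 and 0.13 ± 0.034 at ZT12 (SD, n = 4), with no overlap (two-sided exact permutation p = 0.0286, the smallest that 4 against 4 allows). At ZT24 it was 0.18 ± 0.060 (exact permutation p = 0.2 against ZT12). The ZT24 libraries (0.121 to 0.256) did not overlap those of ZT0 (-0.202 to -0.065), although the clock time is the same. All DRF libraries of ZT4 and ZT8 were negative too. The part of this length gradient in the results was not tested beyond a fit with its trend removed, which gave 2459 rises and 2118 falls. In whole liver, fewer cells of a type and less RNA per cell cannot be told apart.

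**Figure D1:**
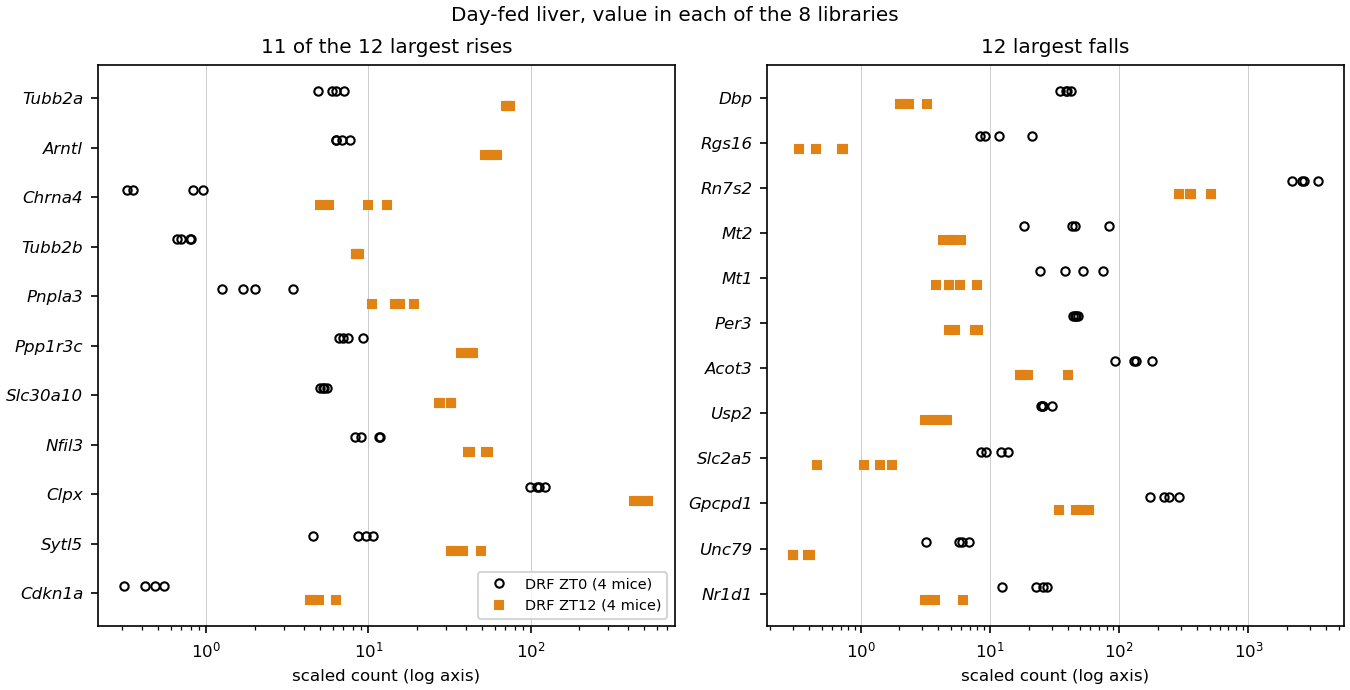
Scaled counts on a log axis in each of the 8 libraries for 11 of the 12 genes that rose most (left) and the 12 that fell most (right), with open circles for the 4 DRF mice at ZT0 and filled squares for the 4 at ZT12. The 2 sets of 4 are apart in each row, as the selection required, with Tubb2a at 4.91 to 7.04 against 70.2 to 74.4 and Dbp at 35.2 to 42.1 against 2.02 to 3.27.

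The core clock genes made the clearest block. Of 6 genes of the activating arm, a list that also holds Nfil3, a repressor of D-box genes, 4 rose and none fell, with a median difference of 1.61, against 8.41% of all genes rising. Of 10 repressors 9 fell and 1 rose (median -1.25), against 9.44% of all genes falling, and of 10 genes of clock output 8 fell and none rose (median -1.39).

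The promoters below are shown because clock and meal-driven transcription factors act there. For each, the 250 bases before the start of the gene were taken from RefSeq (GRCm38.p6), and 8 of the members with a match to a motif known for such factors are given as examples. The motifs, searched on both strands, were the E-box CACGTG of ARNTL and CLOCK, the D-box TTATGTAA or TTACGTAA of DBP and NFIL3, the ROR element TAGGTCA, the sterol response element TCACNCCAC of SREBP and the cAMP response element TGACGTCA of CREB. None of these motifs holds another. Each line runs 5′ to 3′ on the strand of the gene, with the match in capitals. Nfil3 carried a ROR element, Per1, Cry1 and Tef an E-box, Ciart 3 E-boxes, Per3 2 D-boxes, Hmgcs1 a sterol response element and Tubb2a a cAMP response element.
Nfil3, chr13:52981040-52981289, minus strand: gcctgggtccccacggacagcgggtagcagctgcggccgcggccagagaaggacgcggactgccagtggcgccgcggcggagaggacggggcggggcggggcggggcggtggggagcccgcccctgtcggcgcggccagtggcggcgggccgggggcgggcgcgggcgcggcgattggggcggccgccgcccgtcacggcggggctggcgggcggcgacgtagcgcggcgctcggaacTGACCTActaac
Per1, chr11:69098699-69098948, plus strand: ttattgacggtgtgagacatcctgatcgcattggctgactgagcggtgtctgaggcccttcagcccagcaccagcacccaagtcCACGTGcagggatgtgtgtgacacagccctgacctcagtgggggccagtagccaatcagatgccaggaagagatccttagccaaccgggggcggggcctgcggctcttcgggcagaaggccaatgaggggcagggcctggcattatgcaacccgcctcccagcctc
Cry1, chr10:85185055-85185304, minus strand: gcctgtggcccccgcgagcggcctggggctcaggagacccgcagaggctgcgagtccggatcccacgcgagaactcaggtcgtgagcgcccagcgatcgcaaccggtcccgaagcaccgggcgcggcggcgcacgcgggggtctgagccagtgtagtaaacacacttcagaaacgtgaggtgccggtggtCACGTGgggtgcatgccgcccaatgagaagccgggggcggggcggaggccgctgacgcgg
Ciart, chr3:95882229-95882478, minus strand: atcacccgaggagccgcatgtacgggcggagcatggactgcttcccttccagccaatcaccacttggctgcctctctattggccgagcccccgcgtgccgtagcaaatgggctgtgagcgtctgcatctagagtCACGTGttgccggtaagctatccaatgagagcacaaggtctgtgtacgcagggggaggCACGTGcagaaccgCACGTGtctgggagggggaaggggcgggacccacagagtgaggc
Tef, chr15:81802423-81802672, plus strand: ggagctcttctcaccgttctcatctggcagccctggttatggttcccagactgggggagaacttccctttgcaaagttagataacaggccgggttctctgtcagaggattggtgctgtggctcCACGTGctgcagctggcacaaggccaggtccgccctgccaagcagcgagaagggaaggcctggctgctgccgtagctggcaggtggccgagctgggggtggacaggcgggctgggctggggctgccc
Per3, chr4:151044666-151044915, minus strand: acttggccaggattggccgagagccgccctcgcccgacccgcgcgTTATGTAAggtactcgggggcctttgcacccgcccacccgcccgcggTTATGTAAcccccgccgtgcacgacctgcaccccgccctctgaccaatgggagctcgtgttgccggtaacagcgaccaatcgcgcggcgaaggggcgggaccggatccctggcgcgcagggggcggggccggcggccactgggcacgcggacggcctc
Hmgcs1, chr13:119690101-119690350, plus strand: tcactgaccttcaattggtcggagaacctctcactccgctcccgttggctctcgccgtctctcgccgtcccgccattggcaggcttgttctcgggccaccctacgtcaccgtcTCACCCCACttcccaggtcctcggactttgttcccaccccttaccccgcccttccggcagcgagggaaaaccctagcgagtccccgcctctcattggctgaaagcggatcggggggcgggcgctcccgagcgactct
Tubb2a, chr13:34078009-34078258, minus strand: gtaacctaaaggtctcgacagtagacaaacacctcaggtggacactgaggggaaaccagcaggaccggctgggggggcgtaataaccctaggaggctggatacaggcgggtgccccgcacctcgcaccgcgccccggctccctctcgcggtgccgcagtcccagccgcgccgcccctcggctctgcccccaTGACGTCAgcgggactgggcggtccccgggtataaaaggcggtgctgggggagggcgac

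Among all 27025 genes with a window in RefSeq, 6.86% held the E-box, 1.095% a D-box, 2.55% the ROR element, 1.22% the sterol response element and 1.77% the cAMP response element. The E-box was present in 4 of the 8 clock repressor genes with a window (Per1, Cry1, Ciart and Bhlhe41), of which Cry1 rose and the other 3 fell, so the same letters stood before genes that moved in opposite directions. The ROR element was present in 1 of the 5 genes of the activator list with a window (Nfil3), the E-box in 1 of 8 output genes (Tef), the sterol response element in 1 of 16 sterol genes (Hmgcs1) and 1 of 15 lipogenic genes (Mlxipl). The E-box was also present in 4 of 16 sterol, 2 of 15 lipogenic, 2 of 9 tubulin and 1 of 8 gluconeogenic genes. It was present in 0 of 5 activator genes. The motifs were thus not confined to the lists in which their factors are best known. The cAMP response element was present in Tubb2a and Pnpla3 among the genes that changed most. A match is only a match of letters in this window.

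Arntl, the activator partner of CLOCK (ENSMUSG00000055116, chr7:113207465-113314126, GRCm38), had scaled counts of 7.65, 6.29, 6.32 and 6.82 in the 4 mice at ZT0 and 55.7, 52.1, 62.2 and 59.4 at ZT12. The groups were far apart, by a factor of 8.47 between the means, and the difference was 2.91 ± 0.19 (SE, adjusted p = 2.12e-15). Clock itself was at 53.03, 33.9, 43.6 and 43.3 against 121, 125, 126 and 122 (1.502 ± 0.16 SE, adjusted p = 8.96e-10), with all 4 mice at ZT12 above all 4 at ZT0. Npas2, which can replace CLOCK as partner, was low in every mouse at ZT0, at 0.413, 0.332, 0.434 and 0.486, and lay at 3.63, 3.25, 4.01 and 3.83 at ZT12 (1.72 ± 0.17 SE, adjusted p = 2.63e-10). Nfil3, a repressor of D-box genes that is itself held down by REV-ERB, rose from 11.8, 8.24, 8.96 and 11.6 to 41.3, 42.1, 53.05 and 54.8 (2.13 ± 0.16 SE, adjusted p = 2.45e-13). The orphan receptor gene Rora was not called (0.094 ± 0.073 SE, adjusted p = 0.447).

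The period genes fell. Per3 was tight at ZT0, at 45.2, 48.05, 46.3 and 43.9, and low at ZT12, at 8.09, 7.68, 4.82 and 5.400, a factor of 7.06 (-2.67 ± 0.20 SE, adjusted p = 1.07e-13). Per1 went from 15.5, 28.9, 20.3 and 22.3 to 5.26, 5.695, 6.696 and 9.797 (-1.53 ± 0.27 SE, adjusted p = 4.67e-05). Per2 went from 35.2, 74.8, 45.7 and 47.5 to 22.1, 19.8, 18.6 and 25.4 (-1.16 ± 0.26 SE, adjusted p = 0.000961). Neither overlapped, although in both the second mouse at ZT0 stood above the other 3. The REV-ERB genes, nuclear receptors that repress Arntl, fell as well. Nr1d1 had 27.7, 12.4, 22.8 and 25.7 at ZT0 and 3.79, 3.13, 6.22 and 3.39 at ZT12 (-2.15 ± 0.31 SE, adjusted p = 1.43e-06). Nr1d2 had 159.7, 151, 162 and 156 against 40.8, 43.4, 33.9 and 31.9 (-2.05 ± 0.17 SE, adjusted p = 9.48e-13). Ciart, which represses the ARNTL complex, was at 2.07, 1.49, 1.88 and 1.98 against 0.138, 0.139, 0.151 and 0.0957 scaled counts (-1.33 ± 0.11 SE, adjusted p = 3.08e-12). The factor between its means was 14.2, more than the log2(scaled count + 1) scale shows. Bhlhe40 and Bhlhe41, the DEC repressors that compete for E-boxes, fell by 0.98 and 0.46, and the ranges of Bhlhe40 overlapped.

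The cryptochromes went opposite ways. Cry1 was at 31.5, 41.4, 30.7 and 30.2 at ZT0 and 90.8, 93.3, 92.1 and 113 at ZT12 (1.52 ± 0.20 SE, adjusted p = 1.55e-07), so the fourth mouse at ZT12 and the second at ZT0 stood above their groups while the groups stayed apart. Cry2 was at 46.8, 35.7, 35.5 and 39.5 against 22.3, 21.3, 23.9 and 21.4 (-0.79 ± 0.10 SE, adjusted p = 2.33e-07). Over the DRF day, Cry1 had its highest mean at ZT8 (145 scaled counts), whereas Arntl was at 56.2, 57.3 and 60.1 at ZT8, ZT12 and ZT16, and 6.77 and 10.4 at ZT0 and ZT24.

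In the output arm, Dbp, the D-box activator, changed most. Its values were 35.2, 42.1, 39.8 and 38.5 at ZT0 and 2.22, 2.37, 3.27 and 2.02 at ZT12, a factor of 15.7 (-3.53 ± 0.21 SE, adjusted p = 2.35e-16), with the 2 sets of 4 mice widely apart. The related activators moved the same way. Tef was at 79.98, 82.6, 72.4 and 72.2 against 22.8, 22.3, 20.9 and 19.2 (-1.803 ± 0.18 SE, adjusted p = 4.26e-10), and Hlf at 56.5, 62.7, 55.2 and 57.4 against 24.2, 22.9, 23.4 and 21.9 (-1.29 ± 0.19 SE, adjusted p = 1.71e-06). Usp2, a deubiquitinase gene with a strong liver rhythm, had 25.5, 30.2, 25.8 and 24.9 against 4.36, 4.63, 3.69 and 3.14 (-2.49 ± 0.26 SE, adjusted p = 8.63e-10). Wee1, a kinase that restrains mitotic entry, fell by 1.72. Por, which passes electrons to every microsomal P450, was at 212, 197, 209.8 and 203 against 70.5, 81.9, 74.9 and 65.4 (-1.48 ± 0.11 SE, adjusted p = 5.18e-14). Nampt, the rate-limiting enzyme of NAD salvage, and Klf10 fell by 0.42 and 0.85, and neither was called against ZT24. The call of Klf10 was lost without ZT0 mouse 2 or 4 or ZT12 mouse 1 or 3 (adjusted p = 0.0525 to 0.107). Tsc22d3 and Alas1, of haem synthesis, were not called. Rgs16, a regulator of G protein signalling, was among the largest falls, from 21.2, 9.24, 8.32 and 11.8 to 0.719, 0.334, 0.454 and 0.732 (-3.05 ± 0.48 SE, adjusted p = 6.49e-06), and its first mouse at ZT0 was the highest. Exons of the opposite strand cover 18% of Dbp and 10% of Rgs16, and whether strand was used in counting is not given in the sources used here, so reads of such partners cannot be told apart.

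**Figure D2:**
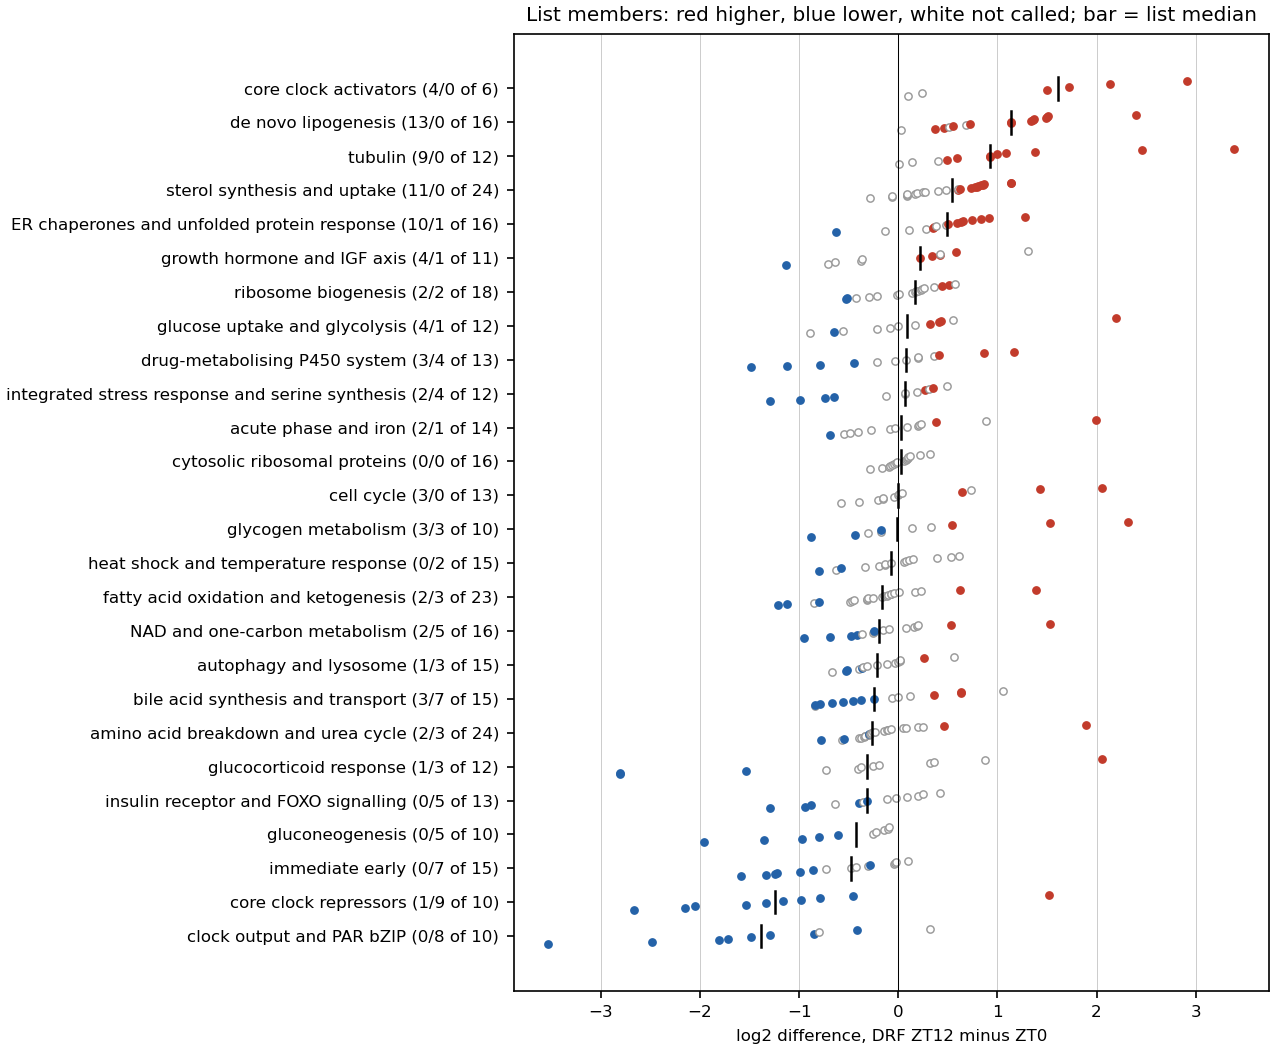
Log2 difference, ZT12 minus ZT0 under DRF, of each member of 26 gene lists, with members called higher in red, called lower in blue and not called in white, and the list median as a black bar. The numbers beside each name are members higher, lower and tested. Clock activators (Nfil3 among them), lipogenesis and tubulin lie to the right with 4 of 6, 13 of 16 and 9 of 12 members higher, and clock output and repressors to the left.

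Of the 24 genes of sterol synthesis and uptake 11 rose and none fell (median 0.55), and of the 16 tested lipogenic genes 13 rose and none fell (median 1.14), against 8.41% of all genes. With the length trend removed these read 12 higher and 1 lower, and 12 higher. In the cytosolic supply of acetyl-CoA, Acly, which cleaves citrate, was at 234, 342, 283 and 284 at ZT0 and 1111, 684, 829 and 675 at ZT12 (1.51 ± 0.28 SE, adjusted p = 8.78e-05), and Acss2, which uses acetate, rose by 1.49. Fasn, the fatty acid synthase, had 122, 273, 150.2 and 150.0 against 665, 399, 462 and 395 (1.497 ± 0.38 SE, adjusted p = 0.0034), so that the groups did not overlap although the second mouse at ZT0 lay well above the other 3. Of the acetyl-CoA carboxylases Acaca rose by 0.73, a call lost without ZT12 mouse 1 (adjusted p = 0.0592), and Acacb by 1.34, from 137, 148, 121 and 129.6 to 340.3, 282, 392 and 354. Me1, which supplies NADPH, went from 804, 876, 785 and 733 to 2595, 1652, 2065 and 2051 (1.37 ± 0.27 SE, adjusted p = 0.00021). The elongases Elovl5 (1.36) and Elovl6 (1.13), the glycerol phosphate acyltransferase Gpam (1.14) and, by less, the desaturases Fads1 and Fads2 (0.55 and 0.37) rose too. The call of Gpam was lost without ZT12 mouse 1 (adjusted p = 0.0847). The call of Fads2 was lost without ZT0 mouse 1 or 3 or ZT12 mouse 1 (adjusted p = 0.0656 to 0.111). Pnpla3, a lipid droplet lipase and acyltransferase gene known to respond to feeding, rose most in the list, from 1.25, 3.43, 1.98 and 1.68 to 19.1, 10.6, 14.7 and 15.7 (2.39 ± 0.43 SE, adjusted p = 5.25e-05).

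Among the regulators of these enzymes, Srebf1 was at 146, 200.4, 155 and 134 against 215, 219, 238 and 222, apart in all 8 mice but not called (0.51 ± 0.20 SE, adjusted p = 0.0756). Mlxipl, which encodes ChREBP, rose by 0.46, a call lost without ZT0 mouse 1, 3 or 4 or ZT12 mouse 1, 3 or 4 (adjusted p = 0.0504 to 0.0947). Thrsp was not called at 101 to 219.5 against 204 to 301, nor was the phosphatidate phosphatase Lpin1. Against ZT24 the list read 11 of 16 higher (6.46% of all genes), and Mlxipl, Acaca and Elovl6 were not called there, at -0.065 (adjusted p = 0.874), 0.17 (adjusted p = 0.709) and 0.25 (adjusted p = 0.712). Elovl6 shows the difference between the 2 references, since it was at 25.8, 47.6, 35.3 and 32.1 at ZT0, 106, 60.4, 75.3 and 71.6 at ZT12 and 38.3, 106, 59.8 and 70.9 at ZT24.

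Within sterol synthesis the largest rises were in 2 later steps. Sc5d, the lathosterol desaturase, was at 165, 229, 199.6 and 199.7 against 493, 437, 401 and 415 (1.14 ± 0.15 SE, adjusted p = 3.55e-07). Lss, the lanosterol synthase, was at 14.6, 22.9, 15.9 and 18.8 against 46.5, 38.2, 39.8 and 37.4 (1.14 ± 0.24 SE, adjusted p = 0.000455). Hmgcs1, an early enzyme, was at 166, 328, 219 and 290.2 against 491, 458, 387 and 356 (0.79 ± 0.26 SE, adjusted p = 0.027), without overlap but with a wide range inside ZT0. Its call was lost without ZT0 mouse 1 or 3 or ZT12 mouse 1 or 2 (adjusted p = 0.0648 to 0.139). Insig1, Pmvk, Idi1, Fdps, Sqle, Nsdhl and Dhcr7 rose by 0.61 to 0.87. Of these, Fdps lost its call without ZT0 mouse 1 (adjusted p = 0.0615), and Idi1 without ZT0 mouse 1 or 3 (adjusted p = 0.0507 to 0.0771). Sqle lost it without ZT0 mouse 1 or 3 or ZT12 mouse 1, 2, 3 or 4 (adjusted p = 0.056 to 0.237). Nsdhl lost it without ZT0 mouse 1, 3 or 4 or ZT12 mouse 1, 2, 3 or 4 (adjusted p = 0.0544 to 0.103). Srebf2, the regulator of the pathway, was not called (-0.059 ± 0.13 SE, adjusted p = 0.852). Against ZT24 the list read 16 of 24 higher. The ZT24 comparison uses the same ZT12 mice.

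Genes of glucose handling split by step. Of 12 genes of glucose uptake and glycolysis 4 rose and 1 fell, against 8.41% of all genes rising and 9.44% falling. Pfkfb1, the liver isoform of the enzyme that makes and removes fructose 2,6-bisphosphate, rose, at 9.28 to 11.7 against 13.1 to 15.3 (0.43 ± 0.12 SE, adjusted p = 0.00776). The glycolytic enzyme genes Pgk1 and Eno1 rose by 0.32 and 0.41. The call of Pgk1 was lost without ZT0 mouse 3 or 4 or ZT12 mouse 1, 2, 3 or 4 (adjusted p = 0.054 to 0.0912), and that of Eno1 without ZT0 mouse 3 or 4 or ZT12 mouse 1 or 3 (adjusted p = 0.0599 to 0.0826). The glucose transporter gene Slc2a2 was nearly constant at ZT0, at 595, 589, 584 and 590.2, and lower in each mouse at ZT12, at 399.9, 381, 409 and 323 (-0.65 ± 0.13 SE, adjusted p = 0.00032), a call not made on the values as deposited (adjusted p = 0.117). Slc2a5, which encodes the fructose transporter GLUT5, was among the 12 largest falls, from 13.8, 8.47, 12.2 and 9.36 to 1.43, 1.05, 1.76 and 0.461 (-2.48 ± 0.23 SE, adjusted p = 3.59e-11).

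In gluconeogenesis 5 of 10 genes fell and none rose (median -0.43), against 9.44% of all genes falling. Pck1, which makes phosphoenolpyruvate, had 924, 980.0, 1053 and 1081 at ZT0 and 196, 325, 242 and 287 at ZT12 (-1.96 ± 0.36 SE, adjusted p = 7.96e-05), so every fed mouse lay below every fasted one. The other 4 were regulators. Creb3l3 and the coactivators Ppargc1a and Crtc2 fell by 0.97, 0.80 and 0.61, and the kinase gene Sik1 went from 22.1, 30.8, 41.3 and 41.4 to 7.74, 14.8, 12.1 and 15.8 (-1.36 ± 0.24 SE, adjusted p = 4.67e-05). The enzyme genes G6pc (107 to 205 against 97.9 to 189, -0.23 ± 0.34 SE, adjusted p = 0.757), Fbp1 and Pcx were not called. Sik1 was at 14.1, 12.4, 16.01 and 15.03 at ZT24, close to its ZT12 level (-0.21, adjusted p = 0.661).

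Glycogen genes were called in both directions, 3 higher and 3 lower of 10 (4 and 1 on the values as deposited), against 17.9% of all genes called. The rises were in subunits that target protein phosphatase 1 to glycogen, Ppp1r3c at 6.95, 7.45, 6.602 and 9.25 against 41.8, 37.4, 42.96 and 43.9 (2.32 ± 0.19 SE, adjusted p = 7.8e-13) and Ppp1r3b at 30.3, 81.8, 47.6 and 52.5 against 168, 145, 146 and 129 (1.53 ± 0.24 SE, adjusted p = 5.47e-06). The branching enzyme Gbe1 rose as well (0.54). The falls were in Gys2, the liver glycogen synthase, at 546, 559.6, 506 and 572 against 349, 321, 274 and 253 (-0.88 ± 0.11 SE, adjusted p = 1.82e-07), in Ugp2, which makes UDP-glucose, and in Phka2 (-0.17). Ugp2 overlapped between the groups (-0.44 ± 0.16 SE, adjusted p = 0.0428) and lost its call without ZT0 mouse 1, 2 or 3 or ZT12 mouse 2, 3 or 4 (adjusted p = 0.0672 to 0.136). Of 13 genes of insulin receptor and FOXO signalling 5 fell and none rose, against 9.44% of all genes falling. They were Insr (-0.40), Foxo1 (-0.32), Foxo3 (-0.88) and the pseudokinases Trib3 and Trib1. Trib3 was at 5.82, 3.03, 3.58 and 4.71 against 0.733, 0.944, 1.64 and 1.23 (-1.29 ± 0.27 SE, adjusted p = 0.000367), and Trib1 gave -0.94 ± 0.19 (SE, adjusted p = 0.000318). After median-of-ratios scaling the list read 1 higher and 4 lower, and on the values as deposited 2 and 3. The call of Foxo1 was lost without ZT0 mouse 2 or 4 or ZT12 mouse 1, 2 or 3 (adjusted p = 0.0637 to 0.156). Irs2 and Igfbp1, which insulin is known to repress, were not called, and each overlapped. Irs2 was at 34.3, 14.1, 30.6 and 37.9 against 14.1, 13.6, 28.1 and 36.6, and Igfbp1 at 24.8, 6.47, 21.00 and 28.5 against 10.9, 7.47, 22.8 and 7.87.

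Of 23 genes of fatty acid oxidation and ketogenesis 2 were called higher and 3 lower (median -0.17), against 17.9% of all genes called in either direction. Cpt1a, the gate for entry of long-chain fatty acids into mitochondria, was at 253, 234, 231 and 254 against 113, 121, 96.4 and 89.9 (-1.21 ± 0.14 SE, adjusted p = 7.67e-09). The nuclear receptor gene Ppara was at 348, 361, 322 and 345 against 162, 163, 154 and 150.4 (-1.12 ± 0.14 SE, adjusted p = 1.17e-07), and neither gene overlapped. Pdk4, a brake on pyruvate oxidation that fasting usually raises, went up, from 9.79, 4.34, 4.48 and 6.67 to 23.4, 17.4, 22.6 and 9.65 (1.38 ± 0.33 SE, adjusted p = 0.00184), with one ZT12 mouse inside the ZT0 range. Ehhadh, of the peroxisomal pathway, rose by 0.62. The acyl-CoA dehydrogenases were not called. Acot3, a peroxisomal thioesterase gene, was among the largest falls, from 179.8, 135, 129.7 and 92.5 to 39.9, 18.1, 17.1 and 19.7 (-2.501 ± 0.38 SE, adjusted p = 4.33e-06). It has close relatives whose reads the counting could have split, and the antisense transcript 4732463B04Rik, whose annotated span overlaps its start, fell with it (-1.99).

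**Figure D3:**
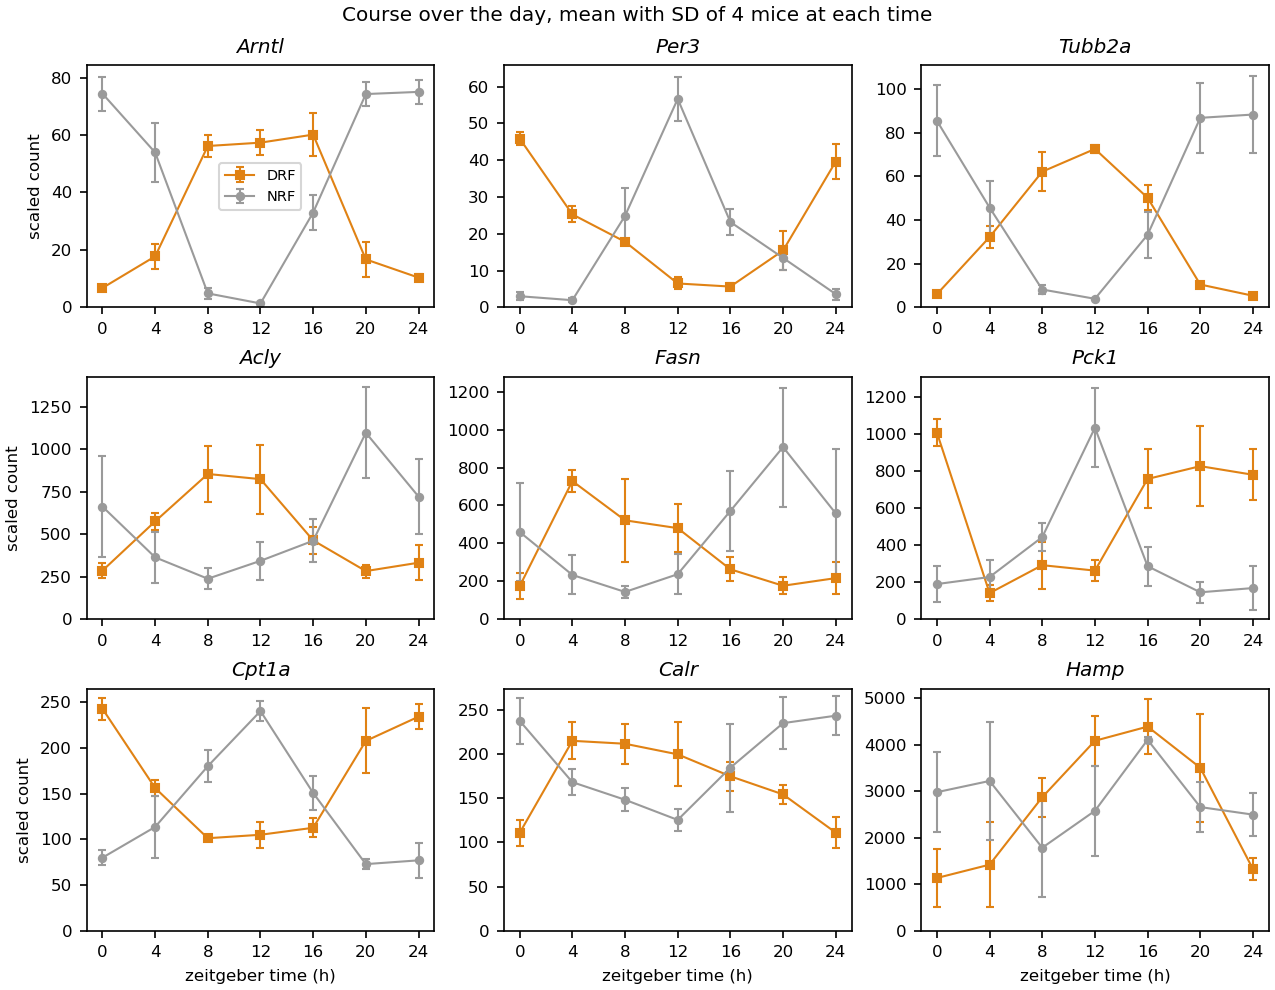
Scaled counts over the 7 times for 9 genes, as mean with SD of 4 mice, with DRF as squares and NRF as circles and the axis from 0. Under DRF Arntl and Tubb2a were near their highest at ZT12 and near their lowest at ZT0 and ZT24, Per3 the reverse, and in Fasn the mean at ZT4 (729) was above that at ZT12 (480.2).

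The courses show where ZT0 and ZT12 lie on the day. Fasn means under DRF were 174, 729, 521, 480.2, 263, 176 and 216 scaled counts from ZT0 to ZT24, so the 2 times compared did not frame the whole swing. Pck1 was at 1010 at ZT0 and already at 141 at ZT4, then at 292, 262, 758, 828 and 781. The difference between ZT12 and ZT0 therefore compared 2 clock times, the end of the meal and the end of the fast, and left out the first hours of feeding. Clock time and feeding state changed together between them.

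Genes of the endoplasmic reticulum were mostly higher at ZT12. Of 16 chaperones and unfolded protein response genes 10 rose and 1 fell (median 0.49), against 8.41% of all genes rising and 9.44% falling. Sdf2l1, a cofactor of the chaperone BiP, was at 2.21, 3.04, 3.01 and 3.24 against 4.21, 7.34, 9.72 and 15.1 (1.27 ± 0.22 SE, adjusted p = 3.92e-05). Hyou1, a nucleotide exchange factor of BiP, was at 23.5, 35.9, 22.02 and 34.3 against 36.2, 50.5, 60.6 and 78.3 (0.92 ± 0.20 SE, adjusted p = 0.000979). In both the first mouse at ZT12 was the lowest and the fourth the highest. Calreticulin (Calr) was at 102, 120.0, 95.7 and 126 against 149, 198, 228 and 223 (0.83 ± 0.13 SE, adjusted p = 8.21e-06). Pdia3, Pdia4, Pdia6, Canx, Manf, Xbp1 and Edem1 rose by 0.35 to 0.75. The call of Manf was lost without ZT0 mouse 1 or 3 or ZT12 mouse 4 (adjusted p = 0.0693 to 0.136), and that of Xbp1 without ZT0 mouse 3 or ZT12 mouse 2 or 4 (adjusted p = 0.0552 to 0.067). Hspa5, which encodes BiP, was not called, at 62.9, 109, 75.4 and 83.8 against 52.00, 68.7, 74.1 and 113 (-0.13 ± 0.24 SE, adjusted p = 0.808). Herpud1, of the degradation branch, was called lower (-0.63 ± 0.20 SE, adjusted p = 0.0225), but its values of 83.7, 97.6, 86.8 and 84.98 at ZT0 and 38.3, 45.7, 56.2 and 105 at ZT12 overlapped. Its call was lost without ZT0 mouse 2 or ZT12 mouse 1 or 2 (adjusted p = 0.0634 to 0.153). In the integrated stress response and serine synthesis list 2 of 12 rose and 4 fell (3 and 2 on the values as deposited), against 17.9% of all genes called. Asns and Psph, of asparagine and serine synthesis, rose by 0.27 and 0.35, and Trib3, Atf3, Sesn2 and Cth fell. Asns, at 0.108 to 0.375 against 0.359 to 0.541 scaled counts, lost its call without ZT0 mouse 1, 2 or 3 or ZT12 mouse 1, 2, 3 or 4 (adjusted p = 0.0502 to 0.144). Psph lost it without ZT0 mouse 2 or 4 or ZT12 mouse 3 or 4 (adjusted p = 0.0718 to 0.0803), and Cth without ZT0 mouse 3 or ZT12 mouse 4 (adjusted p = 0.0625 to 0.0801).

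Tubulin genes, whose products form microtubules, rose in 9 of 12 cases with none lower and a median of 0.92, against 8.41% of all genes rising. Tubb2a (ENSMUSG00000058672, chr13:34074274-34078007) was at 4.91, 7.04, 6.26 and 5.97 scaled counts at ZT0 and at 71.6, 70.2, 73.8 and 74.4 at ZT12, with a spread inside each group that was small beside the factor of 11.99 between the means (3.39 ± 0.18 SE, adjusted p = 1.47e-18). Tubb2b was at 0.655, 0.805, 0.787 and 0.693 against 8.47, 8.38, 8.42 and 8.79 (2.46 ± 0.28 SE, adjusted p = 1.39e-08). Since it is nearly identical to Tubb2a, reads of one may have been counted for the other. Tubb4b had 8.18, 11.6, 10.3 and 11.4 against 25.4, 29.7, 27.1 and 31.9 (1.38 ± 0.15 SE, adjusted p = 1.36e-09), and Tuba4a had 7.58, 8.797, 8.15 and 8.01 against 19.1, 17.1, 16.9 and 20.7 (1.09 ± 0.16 SE, adjusted p = 2.51e-06). Tuba1a, Tuba1b, Tuba1c, Tuba8 and Tubb5 rose by 0.49 or more, each by less than Tuba4a. Exons of the opposite strand cover 37% of Tuba4a. Tubb3, Tubb6 and Tubg1 were not called. At ZT24 Tubb2a was again at 5.47, 4.51, 6.75 and 4.59.

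Of 13 cell cycle genes 3 rose and none fell, against 8.41% of all genes rising. Cdkn1a, which encodes the inhibitor p21, was at 0.311, 0.418, 0.479 and 0.546 against 4.38, 6.300, 4.44 and 4.93 (2.05 ± 0.24 SE, adjusted p = 2.09e-08), with no overlap. Mcm6, a subunit of the replicative helicase, was at 5.12, 4.98, 5.42 and 5.33 against 18.5, 18.9, 7.62 and 22.3 (1.43 ± 0.29 SE, adjusted p = 0.000393), so the third ZT12 mouse stood near the fasted level and the other 3 at more than 3 times it. Mcm2 was at 1.14, 0.971, 1.34 and 1.38 against 2.81, 2.74, 1.35 and 3.21 (0.65 ± 0.19 SE, adjusted p = 0.0124), with the third ZT12 mouse inside the ZT0 range, and lost its call without ZT12 mouse 4 (adjusted p = 0.0638). Ccnd1, Ccna2, Ccnb1, Cdk1, Mki67 and Top2a were not called.

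Metallothioneins and hepcidin moved in opposite directions. Mt1 was at 75.4, 24.4, 52.7 and 37.8 at ZT0 and 5.85, 3.81, 4.83 and 7.88 at ZT12 (-2.803 ± 0.44 SE, adjusted p = 6.97e-06). Mt2 was at 83.6, 18.3, 43.4 and 45.9 against 5.21, 4.33, 5.06 and 5.97 (-2.81 ± 0.50 SE, adjusted p = 5.43e-05). These zinc-binding proteins are induced by metal and by glucocorticoid, and both genes varied by more than a factor of 3 among the 4 fasted mice and stayed apart from the fed ones. They lie side by side and are close in sequence, and opposite-strand exons cover 73% of Mt2. The other members of the glucocorticoid list gave Cdkn1a higher and Per1 lower, with 8 of 12 not called, among them Fkbp5, Sgk1 and Tat. Hamp, the iron hormone hepcidin, was at 1193, 549, 1981 and 818 against 3580.2, 3673, 4389.7 and 4687 (1.997 ± 0.40 SE, adjusted p = 0.000232). Crp rose by 0.38 and the ferritin gene Fth1 fell by 0.69, a call not made on the values as deposited (adjusted p = 0.114), and 11 of 14 acute phase and iron genes, serum amyloids included, were not called. Slc30a10, a manganese exporter, rose from 5.28, 4.99, 5.23 and 5.57 to 27.1, 27.5, 32.4 and 32.3 (2.29 ± 0.20 SE, adjusted p = 9.94e-12).

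The remaining genes with the largest differences came from several functions. Clpx, the unfoldase subunit of a mitochondrial protease, was at 122, 109, 99.7 and 113 against 534, 519, 467 and 438 (2.13 ± 0.15 SE, adjusted p = 1.78e-14). Chrna4, a nicotinic receptor subunit, was at 0.351, 0.952, 0.823 and 0.324 against 12.9, 4.99, 5.67 and 9.95 (2.48 ± 0.48 SE, adjusted p = 0.000164). Sytl5, a synaptotagmin-like protein, was at 4.57, 9.63, 10.6 and 8.600 against 49.6, 33.5, 32.2 and 38.1 (2.11 ± 0.29 SE, adjusted p = 4.12e-07). All 3 were higher in each fed mouse. Gpcpd1, a glycerophosphocholine phosphodiesterase, fell from 292, 173, 223 and 242 to 46.04, 58.5, 50.5 and 34.3 (-2.27 ± 0.20 SE, adjusted p = 1.36e-11). Unc79, of the NALCN channel complex, fell from 6.11, 6.95, 3.23 and 5.804 to 0.303, 0.302, 0.393 and 0.408 (-2.23 ± 0.25 SE, adjusted p = 5.92e-09).

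**Figure D4:**
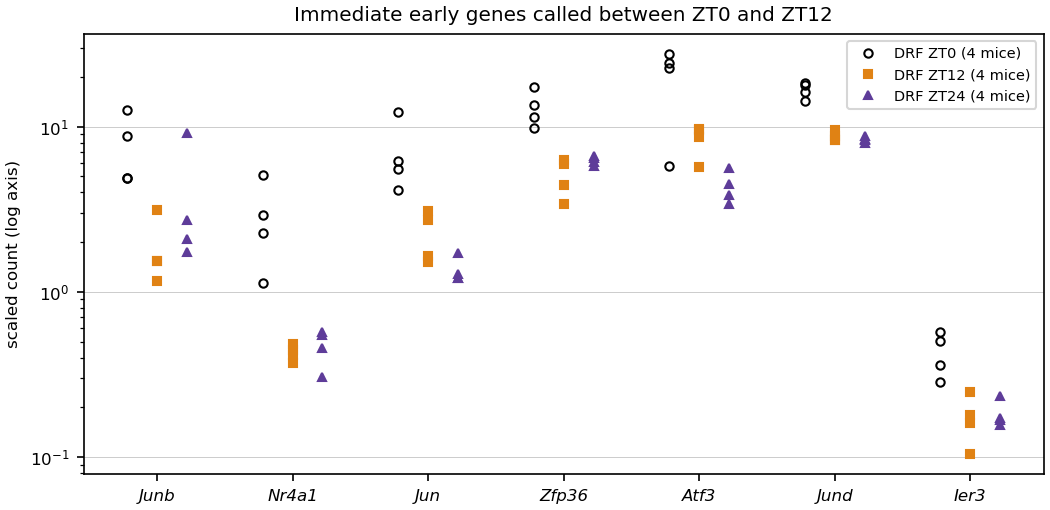
Scaled counts on a log axis of the 7 immediate early genes called between ZT0 and ZT12, in each of the 4 DRF mice at ZT0 (open circles), ZT12 (squares) and ZT24 (triangles). In Nr4a1 the ZT0 mice lie at 1.13 to 5.10, the ZT12 mice at 0.369 to 0.480 and the ZT24 mice at 0.307 to 0.571, so ZT24 lies with ZT12 and not with ZT0.

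Immediate early genes differed between the 2 ends of the DRF day. These genes are transcribed within minutes of a stimulus, and 7 of 15 fell from ZT0 to ZT12 with none rising (median -0.47), against 9.44% of all genes falling. Nr4a1, an orphan nuclear receptor gene, was at 1.13, 2.27, 2.903 and 5.098 at ZT0 and at 0.369, 0.413, 0.4800 and 0.443 at ZT12 (-1.33 ± 0.17 SE, adjusted p = 1.03e-07). Jun was at 4.13, 5.54, 12.3 and 6.23 against 1.52, 3.099, 1.66 and 2.74 (-1.24 ± 0.24 SE, adjusted p = 0.000145). Its relatives moved the same way, Junb at 12.6, 4.88, 8.83 and 4.91 against 1.16, 3.15, 1.53 and 1.54 (-1.58 ± 0.39 SE, adjusted p = 0.00259) and Jund at 14.3, 17.8, 18.2 and 16.2 against 8.29, 9.597, 8.71 and 8.28 (-0.86 ± 0.12 SE, adjusted p = 3.71e-07). Zfp36, which destabilises AU-rich messages, and Ier3 fell by 1.23 and 0.28. In all these the ZT0 mice stood above the ZT12 mice. Atf3 overlapped, at 5.74, 27.6, 22.5 and 24.1 against 9.72, 9.59, 5.71 and 8.702 (-0.99 ± 0.32 SE, adjusted p = 0.0275), and lost its call without ZT0 mouse 2, 3 or 4 or ZT12 mouse 3 (adjusted p = 0.0948 to 0.129). Fos and Egr1 were not called, and in each the second ZT12 mouse was the highest of the 8, at 1.63 and 22.7 scaled counts.

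At ZT24, a clock time equal to ZT0, most of these 7 genes were lower than at ZT0. Jun was at 1.205, 1.27, 1.22 and 1.72, Jund at 7.94, 8.31, 8.77 and 8.36 and Nr4a1 at 0.547, 0.571, 0.307 and 0.457, so that in each gene the ZT24 mice overlapped the ZT12 mice and lay below the ZT0 mice. Junb was at 9.096, 1.74, 2.08 and 2.71, and the first of these mice lay inside its ZT0 range. None of the 7 was called between ZT12 and ZT24 by limma. The differences, ZT12 minus ZT24, were 0.44 (adjusted p = 0.247) for Jun, -0.61 (adjusted p = 0.345) for Junb, 0.055 (adjusted p = 0.848) for Jund and -0.041 (adjusted p = 0.938) for Nr4a1. They were -0.29 (adjusted p = 0.635) for Zfp36, -0.013 (adjusted p = 0.931) for Ier3 and 0.81 (adjusted p = 0.0946) for Atf3. Of the 15 genes 1 was called there, higher at ZT12. Among clock genes, Dbp at 34.95, 24.6, 34.7 and 28.1, Per3 at 36.3, 46.2, 36.05 and 39.8 and Nr1d2 at 183, 150.2, 189 and 185 were nearer at ZT24 to ZT0 than to ZT12. Against ZT24, 4 of the 6 genes of the activator list were higher (median 1.18), 6 of 10 repressors were lower and 1 higher (median -0.72), and 6 of 10 output genes were lower and 1, Tsc22d3, higher (median -1.13). Per1 (6.95, 6.72, 15.4 and 10.6) was nearer to ZT12 and was not called against ZT24 (-0.43, adjusted p = 0.339). The difference between ZT24 and ZT0 itself was not tested. Further genes called against ZT0 and not against ZT24 included Trib1 (-0.069, adjusted p = 0.893), Rbm3 (0.061, adjusted p = 0.868), Crp (-0.03, adjusted p = 0.924), Lamp2 (-0.043, adjusted p = 0.777) and Abcb11 (0.22, adjusted p = 0.136). Others were Utp20 (0.16, adjusted p = 0.364), Stat5a (0.23, adjusted p = 0.163), Asns (0.19, adjusted p = 0.224), Herpud1 (-0.43, adjusted p = 0.163) and Fth1 (-0.27, adjusted p = 0.439). Cyp2a5 (-0.59, adjusted p = 0.141), Cyp2b10 (1.01, adjusted p = 0.0713), Cth (-0.50, adjusted p = 0.0895), Clmp (-0.64, adjusted p = 0.0733) and Igfals (-1.14, adjusted p = 0.0543) were not called there either. Over all genes the ZT24 reference gave 3332 calls (13.1%), 1641 higher (6.46%) and 1691 lower (6.66%) at ZT12. Of the 4534 genes called against ZT0, 2135 were also called in the same direction against ZT24. Of the 286 called with a difference of 1 or more, 223 were. Both comparisons use the same ZT12 mice.

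Bile acid genes were called lower more often than higher, 7 and 3 of 15, but 2 and 3 on the values as deposited. Of all genes 9.44% were lower and 8.41% higher. Cyp7a1, the rate-limiting enzyme of bile acid synthesis, was not called, at 123, 144, 189 and 143 against 179.9, 133, 153 and 129 (-0.0051 ± 0.38 SE, adjusted p = 0.998). Cyp8b1, the sterol 12-hydroxylase that sets the share of cholic acid, fell from 82.3, 64.8, 73.5 and 61.5 to 48.02, 35.2, 48.5 and 27.5 (-0.84 ± 0.23 SE, adjusted p = 0.00733), a call lost without ZT12 mouse 4 (adjusted p = 0.0538). The cholesterol exporter Abcg8 fell (71.7, 74.1, 72.3 and 72.5 against 39.2, 52.2, 33.4 and 43.4, -0.79 ± 0.18 SE, adjusted p = 0.00117), as did its partner Abcg5 (-0.67) and the bile acid importer Slc10a1 (-0.56). The bile salt export pump Abcb11 rose (459, 439, 433 and 470.4 against 636, 704, 766 and 684, 0.63 ± 0.10 SE, adjusted p = 5.18e-06), and so did the receptor Fgfr4 (20.2, 24.2, 24.2 and 23.1 against 33.5, 37.5, 37.3 and 35.8, 0.63 ± 0.084 SE, adjusted p = 2.4e-07). The P450 list gave 3 higher and 4 lower of 13 (3 and 2 on the values as deposited), against 17.9% of all genes called. Cyp2a5 fell from 1183, 1092, 1291 and 898 to 556, 503, 498 and 479 (-1.12 ± 0.26 SE, adjusted p = 0.00151), a call not made on the values as deposited (adjusted p = 0.063), and the xenobiotic receptors Nr1i2 and Nr1i3 fell by 0.45 and 0.79. Cyp2b10, a known target of the latter, rose from 328, 138, 154 and 108 to 385, 461, 335 and 332 (1.17 ± 0.38 SE, adjusted p = 0.0246), and Cyp2c55 rose by 0.87. Both are members of gene clusters with close copies. The call of Cyp2b10 was lost without ZT0 mouse 2, 3 or 4 or ZT12 mouse 2 (adjusted p = 0.0581 to 0.107), and that of Cyp2c55 without ZT0 mouse 2 or 4 (adjusted p = 0.076 to 0.0773). Opposite-strand exons cover 75% of Nr1i3.

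In amino acid breakdown and the urea cycle 2 of 24 rose and 3 fell (4 and 0 on the values as deposited), near the 17.9% of all genes called. The 4 and 4 libraries did not overlap in 10 of the 24 in the direction of ZT0 and in 4 in the direction of ZT12. Of all genes 12.7% and 10.6% did so. The list median was -0.26 on scaled counts and 0.0041 on the values as deposited. Ddc, the aromatic amino acid decarboxylase, stood out at 50.2, 43.5, 54.1 and 47.8 against 173, 177, 182 and 204 (1.89 ± 0.14 SE, adjusted p = 2.22e-13), and Glud1 rose by 0.46. Asl, of the urea cycle, fell from 693, 545, 664 and 565 to 419, 331, 376 and 309 (-0.78 ± 0.16 SE, adjusted p = 0.000293). Gpt2 (-0.55) fell too but lost its call without ZT0 mouse 1 or 3 or ZT12 mouse 4 (adjusted p = 0.0513 to 0.0807). Of 16 genes of NAD and one-carbon metabolism 2 rose and 5 fell (4 and 1 on the values as deposited), against 17.9% of all genes called. Cbs, of cysteine synthesis, rose by 0.54. Nmrk1, a nicotinamide riboside kinase, was at 41.2, 39.8, 41.9 and 44.3 against 23.4, 24.6, 16.4 and 21.1 (-0.95 ± 0.14 SE, adjusted p = 2.15e-06). Nnmt, which methylates nicotinamide, fell by 0.69, a call lost without ZT0 mouse 1, 3 or 4 or ZT12 mouse 2 or 4 (adjusted p = 0.0639 to 0.0941). In the growth hormone axis 4 of 11 rose, against 8.41% of all genes rising. They were Igf1 at 699, 795, 675 and 797 against 1004, 1244, 1023 and 1182 (0.58 ± 0.16 SE, adjusted p = 0.00638), Stat5a (0.42), Stat5b (0.34) and Ghr (0.22). The call of Stat5b was lost without ZT12 mouse 2 (adjusted p = 0.136), and that of Ghr without ZT0 mouse 1, 2 or 4 or ZT12 mouse 1, 2 or 3 (adjusted p = 0.0525 to 0.109). Igfals, which stabilises circulating IGF, was at 20.9, 75.4, 73.4 and 76.3 against 22.3, 26.2, 20.6 and 29.03 (-1.14 ± 0.40 SE, adjusted p = 0.0435), so 3 ZT0 mice stood alike and the first lay at the fed level. Its call was lost without ZT0 mouse 2, 3 or 4 or ZT12 mouse 1, 2, 3 or 4 (adjusted p = 0.0572 to 0.135).

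None of 16 cytosolic ribosomal proteins was called by limma (differences of -0.28 to 0.32, with 1 at an unadjusted p under 0.05), and of 18 ribosome biogenesis genes 2 rose and 2 fell (5 and 0 on the values as deposited), against 17.9% of all genes called. Nop56, a box C/D particle protein, was at 1.48 to 1.92 against 2.43 to 3.33 (0.51 ± 0.11 SE, adjusted p = 0.000542) and Utp20 rose by 0.44, while the nucleolar proteins Ncl and Npm1 each fell by 0.52. In autophagy and lysosome genes 1 of 15 rose and 3 fell (1 and 0 on the values as deposited), against 17.9% of all genes called. The initiating kinase Ulk1 was at 48.7, 50.8, 53.1 and 52.4 against 34.8, 45.4, 30.7 and 32.1 (-0.52 ± 0.13 SE, adjusted p = 0.00327), Atg14 gave -0.37 and Lamp2 0.26. The protease gene Ctsl fell by 0.53, and its call was lost without ZT0 mouse 1 or 3 or ZT12 mouse 4 (adjusted p = 0.0501 to 0.0713). Of the 15 heat shock and temperature genes 2 were called, against 17.9% of all genes, namely the cold-inducible RNA-binding proteins Cirbp and Rbm3. Cirbp was at 4.19, 2.34, 3.11 and 2.52 against 1.61, 1.305, 1.499 and 0.834 (-0.80 ± 0.19 SE, adjusted p = 0.00222), and Rbm3 at 5.64, 4.68, 5.15 and 4.91 against 3.67, 2.75, 3.05 and 2.92 (-0.58 ± 0.14 SE, adjusted p = 0.00281). The other 13 members, heat shock proteins among them, were not called. In clock, lipogenic, tubulin, gluconeogenic, sterol, endoplasmic reticulum and immediate early lists the sign of the median was the same on all 3 other scales. Those scales re-express the same values, so this is a weak check. The sign turned on at least 1 of them in the glycogen, bile acid, heat shock, amino acid, NAD and cell cycle lists. Over the 26 lists, 81 of 355 genes rose and 71 fell, and 116 of these 152 kept the call whichever of the 8 mice was left out.

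The same hours were then compared between regimens, because NRF mice end their meal near ZT0 and their fast near ZT12. In NRF 4987 genes (19.6%) were called, 2506 higher (9.87%) and 2481 lower (9.77%) at ZT12. Of 1919 genes called in both regimens 1703 (88.7%) moved in opposite directions and 216 in the same direction. The log2 differences had a Pearson r of -0.41 across the 25391 genes, which share libraries and are not independent replicates. A test of the difference between regimens, on 16 libraries of separate mice within the 56, called 5744 genes (22.6%), and these included 3170 of the 4534 genes called in DRF (69.9%). Of the 286 genes that moved by 1 or more in DRF, 262 differed between regimens, 197 were called in the opposite direction in NRF, 87 were not called and 2 were called in the same direction. The DRF difference by which genes were chosen is part of the test between regimens. Such genes pass it more readily, so the 69.9% and the 262 of 286 are raised by the choice.

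**Figure D5:**
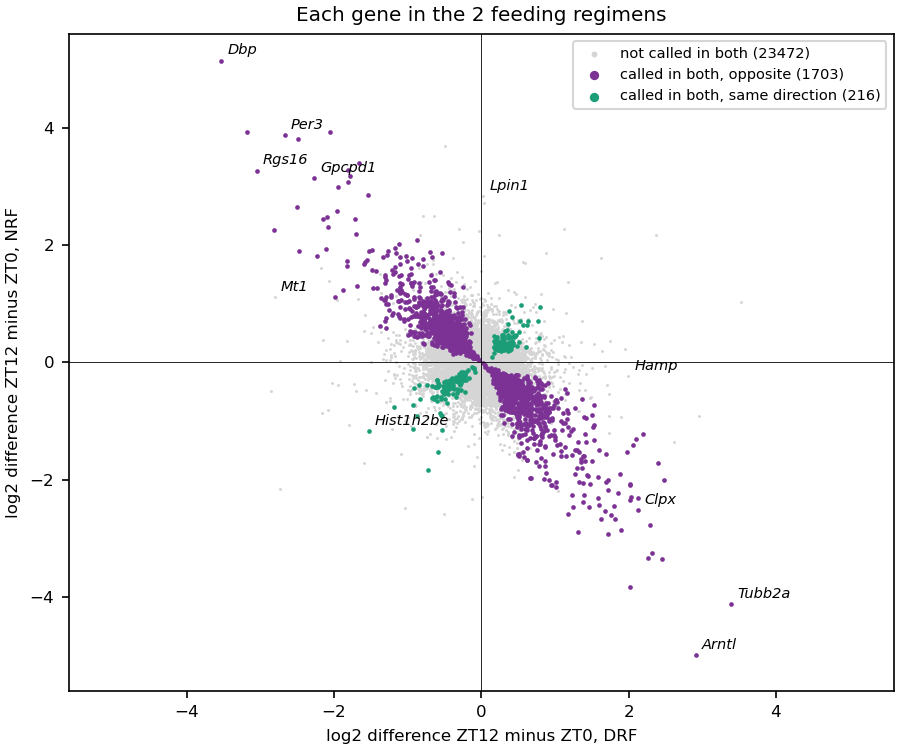
Log2 difference, ZT12 minus ZT0, of each gene under DRF (horizontal axis) and NRF (vertical axis), with genes called in both and opposite in purple (1703), called in both in the same direction in green (216) and the rest in grey. Clock genes such as Dbp and Arntl lie far out in opposite corners, and Hamp (1.997 in DRF and -0.24 in NRF) lies near the horizontal line.

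Dbp, which fell by 3.53 in DRF, rose in NRF from 0.357 ± 0.123 to 47.3 ± 8.73 scaled counts (SD, n = 4), and the regimens differed by -8.67 ± 0.30 (SE, adjusted p = 4.64e-26). Arntl had 74.4 ± 5.92 at ZT0 and 1.38 ± 0.209 at ZT12 in NRF, and the difference between regimens was 7.898 ± 0.27 (SE, adjusted p = 1.96e-26). Its low point was thus deeper in NRF than in DRF, where ZT0 was at 6.77 ± 0.636, although these 2 values were not tested against each other. Tubb2a was at 85.4 ± 16.2 and 3.94 ± 0.507 in NRF (difference between regimens 7.51 ± 0.25 SE, adjusted p = 1.96e-26). Rgs16 (-6.32 ± 0.68 SE, adjusted p = 4.43e-10) and Per3 (-6.54 ± 0.28 SE, adjusted p = 1.1e-22) also reversed. The 5 genes here were picked for large opposite differences, so their adjusted p values do not test the reversal anew.

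By list, the reversal was complete or nearly so in some groups and partial in others. Of all genes 19.6% were called in NRF, 9.87% higher and 9.77% lower at ZT12, and 22.6% differed between regimens. In NRF 9 of 10 clock repressors rose and Cry1 fell, 9 of 10 output genes rose, 11 of 12 tubulins fell and 12 of 16 endoplasmic reticulum genes fell, and 10, 9, 11 and 13 members of these lists differed between regimens. In lipogenesis 13 of 16 members differed between regimens while 4 fell and 2 rose in NRF. Me1 was not called in NRF, at 1099 ± 446 and 1079 ± 449 (-0.047 ± 0.27 SE, adjusted p = 0.945), and the difference between regimens was 1.42 ± 0.38 (SE, adjusted p = 0.00418). In sterol synthesis 13 of 24 differed. In fatty acid oxidation 11 of 23 members rose in NRF against 2 in DRF, and 11 differed between regimens. Hamp was not called in NRF (-0.24 ± 0.40 SE, adjusted p = 0.772) and differed between regimens by 2.24 ± 0.56 (SE, adjusted p = 0.00208). Mcm6 gave -0.20 ± 0.29 (SE, adjusted p = 0.737) in NRF and 1.63 ± 0.42 (SE, adjusted p = 0.00261) between regimens. Immediate early genes gave 1 of 15 called in NRF, and 8 differed between regimens, Nr4a1 among them (-1.39 ± 0.24 SE, adjusted p = 1.23e-05).

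Some genes kept one direction in both regimens. The 5 largest of these were Hist1h2be (-1.53 in DRF, -1.17 in NRF), the adhesion molecule Clmp (-1.19 and -0.76), the pump regulator Fxyd1 (-0.92 and -0.73), the carboxylesterase Ces2c (0.77 and 0.71) and the cysteine-forming enzyme Cth (-0.65 and -0.63). Fxyd1 was at 32.8, 34.3, 34.9 and 32.3 at ZT0 and 16.7, 17.9, 16.3 and 17.96 at ZT12 in DRF, and at 29.8 ± 3.96 and 20.8 ± 13.04 in NRF. None of the 5 was called for a difference between regimens (adjusted p = 0.447 to 0.975), which does not show that the regimens acted alike. The DRF call of Cth was lost without ZT0 mouse 3 or ZT12 mouse 4 (adjusted p = 0.0625 to 0.0801).

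Of 3521 long noncoding genes 86 were higher (2.44%) and 369 lower (10.5%) at ZT12, against 8.41% and 9.44% of all genes, and of 1650 annotated as antisense 32 were higher and 223 lower (15.45%, median -0.052), whereas of 15064 protein-coding genes 1807 were higher and 1712 lower (23.4%). Of 36 mitochondrial genes 2 were called. The length gradient between the 2 groups moved with these classes, and with its trend removed long noncoding genes read 135 higher and 272 lower, and antisense genes 69 and 161. Among single long noncoding genes, chosen after their values were seen, Gm14097 was at 36.1, 22.4, 32.3 and 32.8 against 2.35, 2.88, 2.72 and 1.95 (-3.18 ± 0.23 SE, adjusted p = 3.37e-14). The other, Gm45355, which lies on the opposite strand within Arntl (chr7:113292944-113295337), rose from 0.742, 0.612, 0.266 and 0.509 to 7.32, 4.998, 6.87 and 6.38 (2.27 ± 0.20 SE, adjusted p = 1.28e-11). Exons of the opposite strand cover 10% of Gm14097 and 11% of Gm45355. Whether strand was used in counting is not given in the sources used here. Reads of opposite-strand genes, such as Arntl, therefore cannot be told apart in these genes or in the antisense class.

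Of 7 short structured RNAs transcribed by RNA polymerase III, 4 fell and none rose, against 9.44% of all genes falling. Rn7s2, a signal recognition particle RNA gene with near-identical copies, was at 2695, 2164, 3422 and 2586 at ZT0 and 290.3, 361, 351 and 514 at ZT12 (-2.85 ± 0.57 SE, adjusted p = 0.000275). Others were chosen after their values were seen. Rpph1, the RNA of ribonuclease P, was at 1132, 825, 1363 and 1056 against 218, 288, 278 and 369 (-1.92 ± 0.38 SE, adjusted p = 0.000204). Rn7sk, which restrains the elongation factor P-TEFb, was at 2199, 1478, 2905 and 1840.3 against 515, 655, 562 and 819 (-1.700 ± 0.44 SE, adjusted p = 0.00494). Rn7s1 fell by 1.14, and Rn7s6 (-0.98), Rmrp (-0.76) and Rny3, which was at or near 0 in all 8 libraries, were not called. At ZT24 Rpph1 was at 540.5, 463, 748 and 554, between the other groups. In NRF none of the 7 was called by limma (adjusted p = 0.463 to 0.986, with 0 at an unadjusted p under 0.05), and Rn7s2 and Rpph1 differed between regimens by -2.36 ± 0.81 (SE, adjusted p = 0.0286) and -1.94 ± 0.53 (SE, adjusted p = 0.00513). Rn7sk (-1.21 ± 0.63 SE, adjusted p = 0.184) and Rn7s1 (-0.93 ± 0.40 SE, adjusted p = 0.0954) were not called for that difference. These RNAs are short, and the ZT0 libraries, which held more of the 4 that fell, also had the lower length index. With the length trend removed the 7 still read none higher and 4 lower (median -0.88, against -1.14 with it).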

How the data were processed

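Liver RNA of 56 mice was depleted of ribosomal RNA and sequenced in pairs with strand kept. The submitters' processing notes name CASAVA 1.8, featureCounts 1.5.0-p3, mm10 and GRCm38.p6. Neither the aligner nor whether featureCounts used strand is given in the sources used here. The gene table deposited by the authors is named TPM, but its values are used as a score, since each value times the exon length of the gene is proportional to the natural log of 1 plus a scaled count. That relation was inverted with annotated exon lengths. For 2076 genes without a usable annotated length, and with a wider tolerance for 145 more, a length found by search was used. In a check on 273 genes with a known length, the search returned that length in 252. A wrong length would change the size of a difference. It would also affect its p, since limma draws each gene's spread toward that of other genes. Of the 86 genes that meet the naming rule, 7 had a searched length, namely Ppp1r3c, Cpt1a, Sik1, Igfals, Cbs, Nmrk1 and Fth1. Of values that stand for up to 10 counts, 98.8% to 99.6% per library came out whole within 0.05, and of values for 20000 to 300000 counts 94.3% to 96.6% within 0.2. The recovered totals of 307.4 M to 691.6 M per library are far above the depth that the study describes, so what 1 recovered count stands for is unknown and no counting interval is given. Of 25415 listed genes 25391 were used. Tables of transcripts and circular RNAs were not used.

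Differences were tested with limma 3.58.1 (R 4.3.3) on log2(scaled count + 1), with 14 groups over all 56 libraries, an intensity trend, 42 residual degrees of freedom and Benjamini-Hochberg adjustment over all genes, at 0.05. On simulated data with 200 of 25391 genes changed between ZT0 and ZT12 of DRF, 58% of changes of 0.5 and 91% of changes of 1 (log2) were called, and 7.45% of the calls were false. Far more genes (4534) were called in the real data, so these shares do not carry over to it. Genes were named where they were the 12 largest rises or falls with groups that did not overlap, a mean of at least 5 scaled counts in 1 group and an assigned gene symbol, the top 2 called in each direction of each list, and the 5 largest in both regimens with opposite or equal sign. Other list members, and the genes said to be chosen after their values were seen, are given beside them, and a few genes that meet these rules are not reported here. The comparison, its lists and these rules were chosen with earlier results of these data known. Alternatives were other choices of libraries, scale, pseudocount, filter, reference time and model, and the omission of each library. Gene positions are from GRCm38, and promoters from RefSeq. Values were computed with Python 3.11.15, numpy 2.4.6, pandas 2.3.3 and scipy 1.17.1.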

Additional observations from a re-analysis of the deposited data

Results flagged for a closer look

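In 5 of the 172 groups of 4 mice examined, 2 for each of the 86 genes that meet the naming rule, 1 mouse lay apart from the other 3 by Dixon's criterion, and chance alone would give about 1 in 20. Acot3 was at 39.9 scaled counts in 1 DRF mouse at ZT12 and at 17.1 to 19.7 in the other 3. Cry1 was at 41.4 in 1 mouse at ZT0 (others 30.2 to 31.5) and at 113 in 1 mouse at ZT12 (others 90.8 to 93.3). Lamp2 was at 223 in 1 mouse at ZT0 (others 194 to 198), and Igfals at 20.9 in 1 mouse at ZT0 (others 73.4 to 76.3).

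The difference between ZT12 and ZT0 was itself different between DRF and NRF in 5744 genes by the limma interaction. Among the genes named by rule for opposite directions it was -8.67 for Dbp, 7.51 for Tubb2a, -6.32 for Rgs16, 7.90 for Arntl and -6.54 for Per3, on the log2(scaled count + 1) scale, DRF minus NRF.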

How the results depend on the processing

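Over all genes, the counts of rises, falls and differences between regimens (2136, 2398 and 5744) were 2153, 2586 and 5053 with only the libraries compared, 2355, 2195 and 5706 after median-of-ratios scaling, 2146, 2397 and 5726 with a pseudocount of 0.25, 2000, 2118 and 4880 among the 13732 genes with a mean of at least 1 scaled count, 2459, 2118 and 5825 with the length trend removed, 2125, 2385 and 5706 without the intensity trend and 1641, 1691 and 5644 with ZT24 in place of ZT0. On the values as deposited, tested as log2(value + 1), they were 2836, 1422 and 4939, and the cause of the smaller number of falls was not tested. Without 1 of the 8 DRF libraries at a time, rises ranged from 1650 to 1929 and falls from 1881 to 2212. Without 1 of the 8 NRF libraries, rises ranged from 2113 to 2198 and falls from 2374 to 2532. Differences between regimens ranged from 5274 to 5725 over all 16 omissions. The animals of the groups are different mice, and same-numbered mice did not deviate together (r of 0.065, -0.069, 0.003 and 0.004 between ZT0 and ZT12), so the replicate numbers did not pair them. The replicate block gave 2131, 2385 and 5745.

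Of the 86 genes that meet the naming rule, 73 kept their call whichever library was left out and 13 lost it without at least 1. With only the libraries compared 82 kept it, after median-of-ratios scaling 85, with the replicate block 84 (Ugp2 and Asns lost it, adjusted p = 0.0522 and 0.0512), with the length trend removed 84, on the values as deposited 69 and against ZT24 67. The 4 not called by limma with only the libraries compared were Ugp2, Igfals, Herpud1 and Atf3 (adjusted p = 0.0684, 0.108, 0.187 and 0.197). The 17 not called on the values as deposited were Ugp2, Gpt2, Cth, Slc2a2, Ctsl, Asl, Fth1, Ulk1, Nnmt, Herpud1, Npm1, Ncl, Cyp2a5, Cyp8b1, Igfals, Atf3 and Tubb2b. Against ZT24 the sign also turned, with no call, for Atf3 (0.81), Rbm3 (0.061), Lamp2 (-0.043) and Crp (-0.030). The cause was not tested.

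At 4 mice a group, a gene that was not called cannot be taken as unchanged. The simulated recovery of 58% at a log2 difference of 0.5 was for 200 changed genes, against 4534 called here. The Benjamini-Hochberg cutoff depends on that share, so the 58% is not the power of this comparison. The depth in reads is unknown, so no floor is given for low genes, and genes below a few scaled counts are compressed by the pseudocount.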
